A study of Mus musculus with 34 samples.

Results

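Binding of macrophage transcription factors was described at 3 mouse genes, Lyz2, Lyz1 and Mir21a, whose neighbourhoods held the strongest PPARγ-bound Jun peaks of wild-type macrophages that had no Jun peak in PPARγ knockout macrophages. All ChIP-seq peaks with a midpoint inside a gene body or within 20 kb of it were taken, in mm10 coordinates and GENCODE gene models. These were 383 of the 596383 peaks in the 30 peak lists, 121 of them around Lyz2 and Lyz1, whose windows overlap, and 262 around Mir21a. Overlapping peaks (1 bp or more) of different lists were merged into 36 elements, of 93024 in the whole series, 13 at the Lyz genes (L1 to L13) and 23 at Mir21a (M1 to M23), each numbered along the chromosome. The 3 genes were picked on the comparison of Jun lists between wild type and knockout, so that comparison is given here as a description only.

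The cells were thioglycollate-elicited macrophages (TGEMs), which are cells that enter the peritoneum after an irritant is injected, and the wild-type mice were 8-week males, while the age and sex of the knockout mice are not given in the sources used here. Wild-type C57BL/6J cells gave 17 lists, PPARγ for Veh (PBS) only, and ATF3, Jun, JunD, Fos, FosL2 (Fra2 in the labels), JunB, PU.1 and CEBPα after Veh and after 1 h of KLA at 100 ng per mL. KLA is Kdo2 lipid A, a pure agonist of the endotoxin receptor TLR4. BALB/cJ wild-type cells gave 10 lists, ATF3, Jun, JunD, Fos and JunB after Veh and after 1 h of KLA. Cells labelled PPARγ knockout on the C57Bl6 background gave 3 lists, ATF3, Jun and JunD after Veh, and no PPARγ list from them was analysed here, so the deletion was not checked. The Cre driver or other means of the deletion is not given in the sources used here. Where Lyz2 itself drives Cre, the Lyz2 allele of the cells is changed, and whether this was so in the knockout was not tested, which limits every peak at Lyz2 that is called missing there. Each condition had 1 list, made by the authors from peaks that passed a replicate filter, so no spread between replicates exists and no test was made. In what follows a count is the number of reads in a peak as deposited, and the rank is that of the count within its own list, with 1 the highest. Counts are compared across lists through their ranks, since the summed counts of the lists differ. Among the C57BL/6J lists these ran from 9196 for JunB Veh to 13809143 for PU.1 Veh. A summed count depends on how many peaks were listed as well as on depth, and read totals were not analysed here. The BALB/cJ Fos Veh list was empty and the BALB/cJ JunB Veh list held 9 peaks, so neither was compared with another list. The BALB/cJ JunB Veh list was still 1 of the 29 lists used for the gene patterns given last. The macrophage label was checked by PU.1 and CEBPα Veh peaks within 1 kb of start sites, and PU.1 peaks lay at 6 of 6 macrophage marker genes (Csf1r, Adgre1, Itgam, Cd68, Mertk and Cd14) and CEBPα peaks at 4 of them. Neither factor had such a peak at 4 T cell or 4 B cell genes, and of 4 granulocyte genes 1, S100a8, carried both.

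Lyz2 encodes lysozyme M and Lyz1 lysozyme P, enzymes that cleave the peptidoglycan of bacterial cell walls. Lyz2 is a standard mark of macrophages and neutrophils, and its locus is widely used to drive Cre in myeloid cells, whereas lysozyme P is best known from Paneth cells of the intestine. Mir21a encodes miR-21, a microRNA that is raised in many inflamed tissues and tumours and represses Pdcd4. It lies at the end of Vmp1, a gene for a membrane protein of autophagy, and its primary transcript is known to start in a Vmp1 intron from a promoter that AP-1 and PU.1 can bind. AP-1 is a dimer of proteins of the Jun, Fos and ATF families, PU.1 and CEBPα are factors that select macrophage enhancers, and PPARγ is a lipid-activated nuclear receptor that binds with RXR.

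The mature products of Mir21a are shown first, with the seed (bases 2 to 8) in capitals, as RefSeq gives them on GRCm38.p6. Both are read from chromosome 11, minus strand, the 5p product from chr11:86584120-86584141 and the 3p product from chr11:86584082-86584103.
miR-21a-5p: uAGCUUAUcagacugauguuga
miR-21a-3p: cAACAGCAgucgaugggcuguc

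The element sequences that follow are the central 200 bp of the elements on which the results turn, from the plus strand. M17, M5 and M2 carried strong PPARγ-bound Jun peaks that were missing in the knockout, M7 and M23 carried Jun peaks that were found in both genotypes, and L12 carried the strongest missing Jun peak without PPARγ among the 36 elements. In M5, M2 and M23 the capitals mark exact matches to the words searched, which are spelled out with the motif results. M17 and M7 held no exact match, and there the capitals mark AP-1 words with 1 mismatch. L12 held neither.
M17, chr11:86587044-86587243: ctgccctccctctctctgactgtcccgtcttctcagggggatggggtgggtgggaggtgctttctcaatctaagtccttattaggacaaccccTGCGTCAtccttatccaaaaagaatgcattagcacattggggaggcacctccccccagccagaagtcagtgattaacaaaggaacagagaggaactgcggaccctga
M5, chr11:86577298-86577497: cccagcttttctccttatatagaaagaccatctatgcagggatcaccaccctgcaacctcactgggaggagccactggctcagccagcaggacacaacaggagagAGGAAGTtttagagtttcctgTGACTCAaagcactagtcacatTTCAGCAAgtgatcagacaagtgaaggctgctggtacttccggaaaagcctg
M2, chr11:86570343-86570542: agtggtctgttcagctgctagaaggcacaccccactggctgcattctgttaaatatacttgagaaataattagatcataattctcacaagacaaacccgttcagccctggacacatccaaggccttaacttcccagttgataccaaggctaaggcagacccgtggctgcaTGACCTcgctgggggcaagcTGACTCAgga
M7, chr11:86578892-86579091: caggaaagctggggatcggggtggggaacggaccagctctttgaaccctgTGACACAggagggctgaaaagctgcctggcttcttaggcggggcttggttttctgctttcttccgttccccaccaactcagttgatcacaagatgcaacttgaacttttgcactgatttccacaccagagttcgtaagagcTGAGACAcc
M23, chr11:86603819-86604018: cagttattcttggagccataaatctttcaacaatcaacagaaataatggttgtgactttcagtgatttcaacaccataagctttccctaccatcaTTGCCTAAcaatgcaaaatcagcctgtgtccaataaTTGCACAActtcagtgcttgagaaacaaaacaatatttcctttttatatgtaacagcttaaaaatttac
L12, chr10:117301859-117302058: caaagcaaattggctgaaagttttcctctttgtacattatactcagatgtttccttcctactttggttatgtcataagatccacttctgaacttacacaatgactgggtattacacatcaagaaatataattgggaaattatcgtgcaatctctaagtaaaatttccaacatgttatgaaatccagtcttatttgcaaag

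Of L3 and L8, which lie in the 3′ UTRs of Lyz2 and Lyz1, only short sites are shown, as examples of the sequence that these paralogous elements have in common. In each, the capitals mark the CEBP word or the nuclear receptor core site.
L3 CEBP, chr10:117277944-117277968: gggagactTTGCACAAcacagcatc
L8 CEBP, chr10:117288406-117288430: gggagactTTGCACAAcacagcatc
L3 core site, chr10:117277860-117277884: aagaacTGACCTacagaggtgtctg
L8 core site, chr10:117288319-117288343: ctgaagaacTGACCTacagagatgt

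Lyz2 (ENSMUSG00000069516.8, chr10:117277331-117282321) and Lyz1 (ENSMUSG00000069515.6, chr10:117287797-117292868) lie side by side on the minus strand. Positions at both genes are given from the Lyz2 start, positive values downstream. Mir21a (ENSMUSG00000065455.1, chr11:86584067-86584158, minus strand) lies in the 3′ UTR of Vmp1 (ENSMUSG00000018171.9, chr11:86583865-86683836), and its positions are given from the 5′ end of the hairpin. AP-1 peaks of some kind lay in 32 of the 36 elements, PPARγ peaks in 17, wild-type Jun Veh peaks in 14, PU.1 Veh peaks in 14 and CEBPα Veh peaks in 11. Peaks from at least 20 lists met in 7 of the 36 elements, against 6.89% of all elements of the series, and 7 were seen in a single list, against 27.3% of all. The broadest were M5 and M7 with 26 lists each, and L8 and M17 with 25 each.

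**Figure D1:**
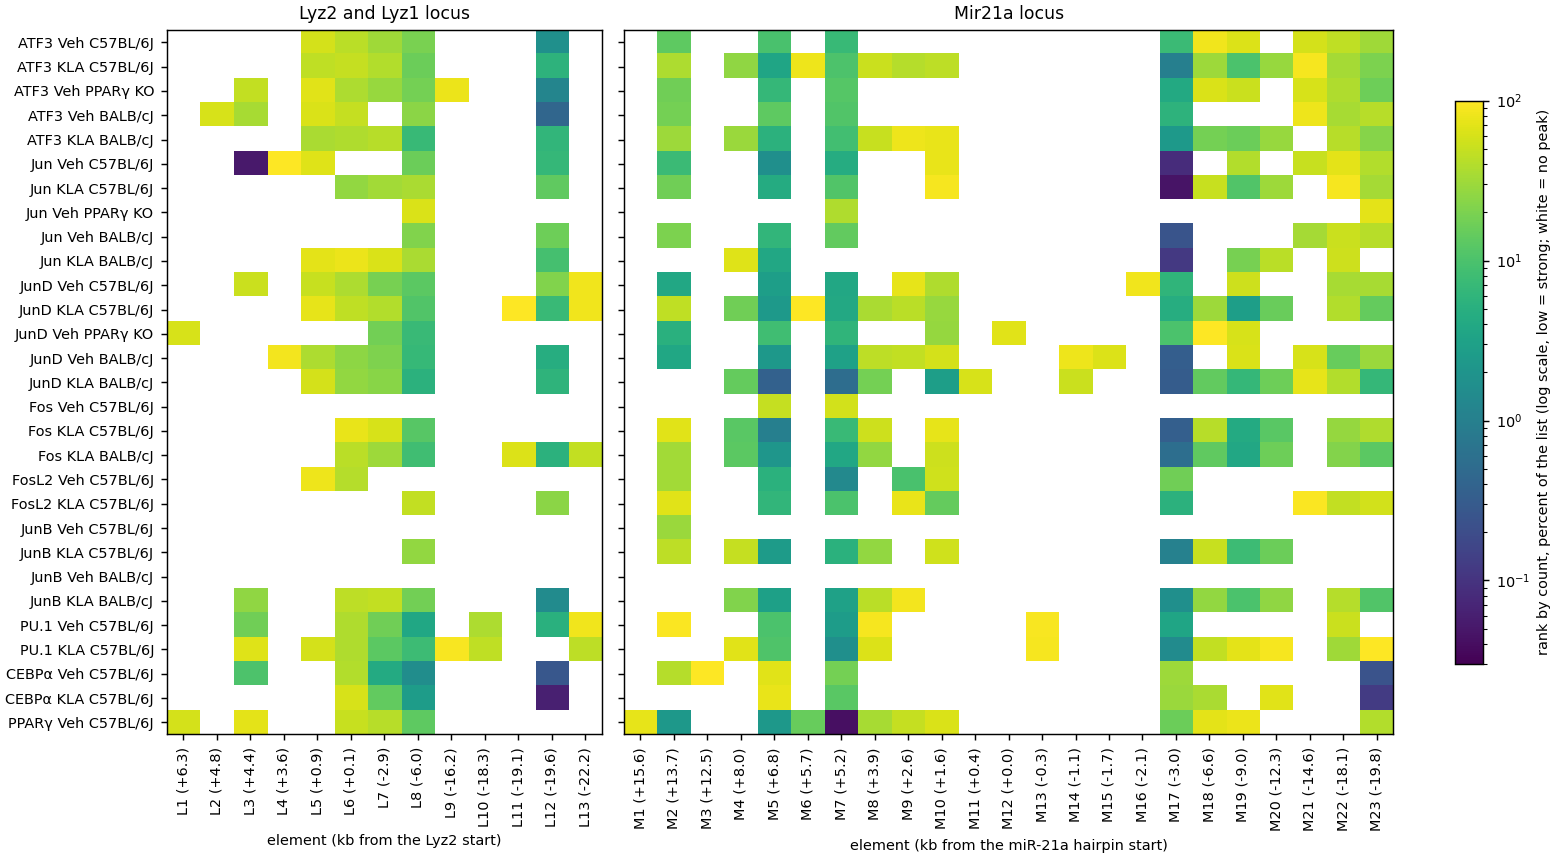
Rank by count of the strongest peak in each element (columns, with distance in kb from the Lyz2 start or the miR-21a hairpin start in brackets) in each of the 29 lists that hold peaks (rows), as a percent of the list on a log colour scale. Dark cells are the strongest peaks and white cells hold none. The Jun cells of M17 are dark in every Jun row except the knockout, and the Jun cell of L3 is dark in the C57BL/6J Veh row alone.

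Wild-type Jun Veh peaks were 14 at the 3 genes, 5 at the Lyz genes and 9 at Mir21a. Of these, 11 had no overlapping Jun peak in the knockout, 4 of 5 at the Lyz genes and 7 of 9 at Mir21a, beside 78.2% of the whole wild-type Jun list. PPARγ peaks overlapped 6 of the 11 missing and all 3 of the found Jun peaks. In the whole list 71.4% of PPARγ-bound Jun peaks and 91.2% of Jun peaks without PPARγ were missing in the knockout. The genes had been chosen for the strength of L3 and M17. Among the strongest 1% of wild-type Jun peaks, 20 of 160 were missing in the knockout, or 12.5%, and L3 and M17 were both among the 20. That 1% was taken by the count of a whole peak. Ranked by count per bp, L3 stood at 3.98% of the list and M17 at 4.53%, outside the strongest 1%.

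The knockout Jun list was itself shorter, with 4290 peaks and a summed count of 88033, against 15548 peaks and 466030 in wild type. When both lists were cut to the length of the shorter by count, 5 of the 7 member peaks that remained were missing, or 71.4%, beside 47.3% of the wild-type list cut the same way. L3 and M17, on which the genes were chosen, are among the 5. The member share is therefore partly set by that choice, and nothing is read from its distance to the list share. The lowest count was 11 in both full lists, and the highest count was no lower in the knockout than in wild type. The median count was 25 in wild type and 18 in the knockout. Peak number and summed count do not give the depth of a library, and read totals were not analysed here. How far depth bears on the missing Jun peaks was therefore not tested.

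**Figure D2:**
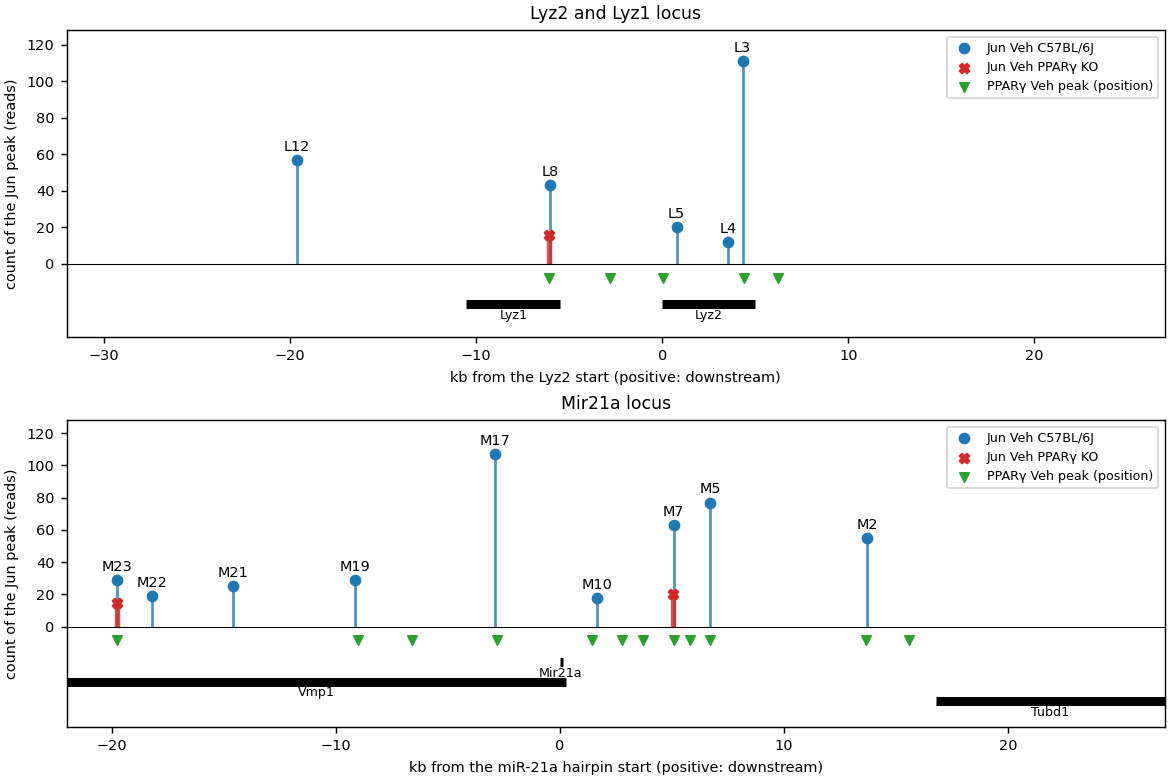
Counts of Jun Veh peaks (y axis, reads) in C57BL/6J wild-type (blue circles) and PPARγ knockout (red crosses) macrophages along the Lyz locus (top) and the Mir21a locus (bottom), against the distance in kb from the Lyz2 start or the miR-21a hairpin start, positive downstream. Green triangles mark PPARγ Veh peaks and black bars the genes, with Vmp1 and Tubd1 continuing beyond the edges. Of the 14 wild-type peaks, those at L8, M7 and M23 have a knockout peak, at counts of 15 to 20.

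The strongest PPARγ-bound Jun peak missing in the knockout lay at L3, in the 3′ UTR of Lyz2 (chr10:117277807-117278196). Its count was 111 in wild-type Veh, rank 8 of 15548, the first place by count among the 7302 peaks of this kind. Among all missing Jun peaks, with or without PPARγ, the highest count was 118. M17, in a Vmp1 intron at -2.986 kb from the hairpin, was second with a count of 107 at chr11:86586877-86587263, rank 13 of 15548. The next in order were near Atf3 (101), Ankrd55 (99), Hlx (94) and Manba (94), each named by the nearest start of a protein-coding or microRNA gene. The other members in this order were M5 at place 31 with a count of 77, M2 at place 235 with 55, M19 at place 2605 with 29 and M10 at place 5761 with 18. The order rests on the count of a whole peak, and the peaks at L3 and M17 were 390 and 387 bp wide, where the median of the list was 240 bp. Ordered by count per bp, L3 took place 97 and M17 place 121, and the first place went to the peak near Ankrd55.

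**Figure D3:**
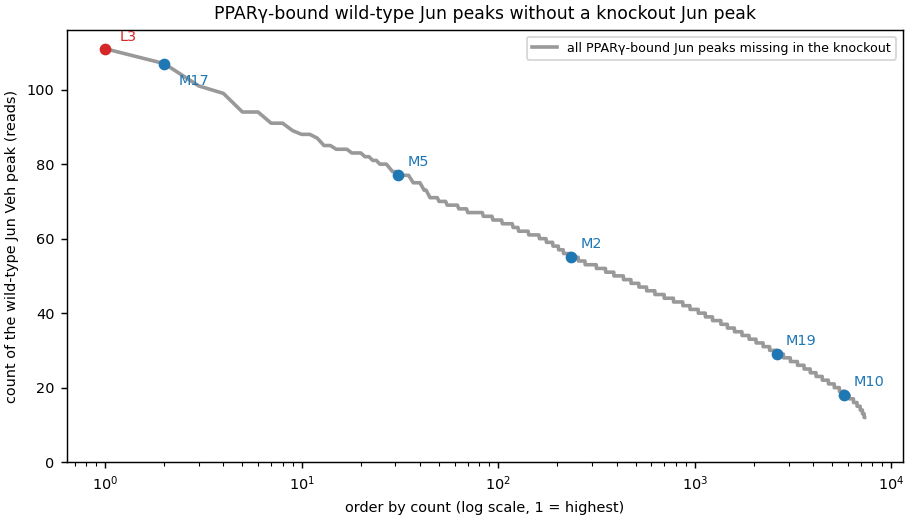
Count of each of the 7302 PPARγ-bound wild-type Jun Veh peaks without a knockout Jun peak (y axis, reads) against its place in the order by count (x axis, log scale). The red point is L3 at the Lyz genes and the blue points are elements at Mir21a, and L3 and M17 hold places 1 and 2.

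L3 was unlike the other strong elements in being bound by Jun in a single list. No Jun peak lay there in C57BL/6J after KLA, in BALB/cJ after Veh or KLA, or in the knockout. All these comparisons share the same C57BL/6J Veh list, so the absence in each is not separate evidence. Other AP-1 peaks at L3 were JunD Veh in C57BL/6J with a count of 48 (rank 10361 of 19653), ATF3 Veh in BALB/cJ with 46 (rank 6794 of 19506), JunB KLA in BALB/cJ with 64 (rank 5678 of 21667) and ATF3 in the knockout with 30 (rank 13581 of 28318). All of these had lower ranks in their lists than Jun had in its own. The lineage factors were strong at L3 in resting cells, PU.1 with a count of 514 (rank 7252 of 41573) and CEBPα with 164 (rank 1334 of 12892). After KLA, PU.1 had a peak with a count of 46 (rank 27456 of 40645) and CEBPα had none. The PPARγ peak at L3 was weak, with a count of 24 at rank 22142 of 31089.

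Part of the L3 sequence occurs elsewhere in the genome. Of its 31-base words, 72.6% were unique on the assembled chromosomes, and 18.1% of its words were also found in L8, the element in the 3′ UTR of Lyz1. L3 and L8 matched at 95.4% of 373 aligned bases, whereas L3 and L12, aligned the same way, matched at 69.7%. At M17 and L12 all words were unique (100%). How reads of the near-identical copies were placed between L3 and L8 was not tested. Without L3, 10 of the remaining 13 wild-type Jun peaks, or 76.9%, were missing in the knockout, an alternative chosen after the data were seen. M17, for whose strength the genes were also chosen, is still among the 10, so this share is not free of that choice.

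L8 kept a Jun peak in the knockout. Its Jun counts were 43 in C57BL/6J Veh (rank 2500 of 15548), 16 in the knockout (rank 2699 of 4290), 36 in C57BL/6J KLA, 45 in BALB/cJ Veh and 44 in BALB/cJ KLA. L8 thus had a peak in all 5 Jun lists. Around it CEBPα had counts of 256 after Veh (rank 208 of 12892) and 221 after KLA (rank 395 of 14802), and PU.1 had 841 (rank 1588 of 41573) and 179 (rank 3143 of 40645). The PPARγ count at L8 was 85 (rank 4194 of 31089), the highest of the 5 PPARγ peaks at the Lyz genes. Of the 31-base words of L8, 72.3% were unique.

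The Lyz2 promoter element L6 and the element L7, at -2.866 kb, had no Jun peak in Veh in either strain and one in KLA in both. At L6 the Jun KLA counts were 41 in C57BL/6J and 24 in BALB/cJ, and at L7 they were 38 and 30. ATF3 and JunD lay at both elements in C57BL/6J without KLA, with ATF3 counts of 61 at L6 and 76 at L7 and JunD counts of 59 and 81. So AP-1 occupied L6 and L7 in resting C57BL/6J cells without a Jun peak at either. Close by, L5, in a Lyz2 intron at 0.869 kb, did carry a Jun Veh peak in C57BL/6J, at rank 10548 of 15548. CEBPα was strong at L7, with a count of 210 after Veh (rank 546 of 12892) and 136 after KLA (rank 2112 of 14802). Within Lyz2, the weak Jun peaks of C57BL/6J Veh at L4 (12) and L5 (20) were also missing in the knockout.

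L12, at -9.091 kb from the Lyz1 start, had the highest count at the Lyz genes in every ATF3 and CEBPα list. Its ATF3 Veh counts were 219 in C57BL/6J (rank 413 of 23160), 184 in BALB/cJ (rank 85 of 19506) and 147 in the knockout (rank 345 of 28318). CEBPα had 319 after Veh (rank 35 of 12892) and 365 after KLA (rank 9 of 14802). Jun was present in the 4 wild-type lists with counts of 57, 53, 50 and 73 (C57BL/6J Veh and KLA, BALB/cJ Veh and KLA) and was missing in the knockout. JunD had 77 in C57BL/6J Veh and was missing in the knockout too, so ATF3 was the single AP-1 protein of the 3 with a knockout peak there. PPARγ had no peak at L12. PU.1 had 783 after Veh (rank 2173 of 41573) and no peak after KLA.

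M17 was among the strongest Jun elements of every wild-type list. Jun counts were 107 in C57BL/6J Veh (rank 13 of 15548), 129 in C57BL/6J KLA (rank 8 of 17480), 114 in BALB/cJ Veh (rank 27 of 10957) and 133 in BALB/cJ KLA (rank 13 of 11317), and the knockout had no Jun peak. It was the strongest Jun element of the Mir21a window in each of the 4 wild-type lists. In the knockout ATF3 had a count of 107 (rank 1169 of 28318) and JunD 86 (rank 1966 of 19355), and in wild type they had 149 (rank 1770 of 23160) and 119 (rank 1175 of 19653). So 2 other AP-1 proteins had strong knockout peaks at the element where Jun had none. The PPARγ count at M17 was 77 (rank 4962 of 31089), and PU.1 had 856 after Veh (rank 1452 of 41573) and 270 after KLA (rank 604 of 40645). The inducible partners were strong there after KLA, Fos with 225 in C57BL/6J (rank 86 of 24365) and 343 in BALB/cJ (rank 227 of 40459), and JunB with 119 (rank 142 of 13375) and 155 (rank 373 of 21667). Neither Fos nor JunB had a Veh peak at M17.

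**Figure D4:**
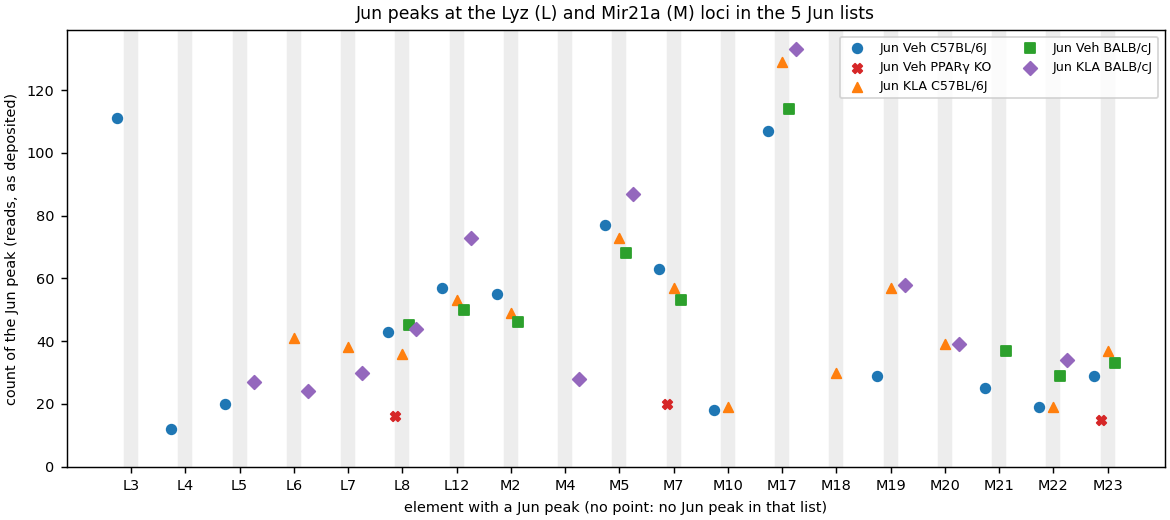
Count of the Jun peak (y axis, reads as deposited, not scaled between lists) at each element with a Jun peak (x axis) in the 5 Jun lists, with 1 point per list and no point where a list has no peak. M17 has the highest count in 3 of the 4 wild-type lists, L3 being higher in C57BL/6J Veh, and the knockout (red crosses) has points at L8, M7 and M23 alone.

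A cluster of broad elements lay downstream of Mir21a, between Vmp1 and Tubd1. M5, 6.76 kb downstream, had Jun counts of 77 in C57BL/6J Veh (rank 264 of 15548), 73 in C57BL/6J KLA, 68 in BALB/cJ Veh and 87 in BALB/cJ KLA, and no knockout peak. ATF3 and JunD had knockout counts of 92 and 93 there. M7, 5.166 kb downstream, carried the strongest PPARγ peak of all members, with a count of 509 at rank 13 of 31089. Its Jun counts were 63 in C57BL/6J Veh (rank 699 of 15548), 20 in the knockout (rank 1632 of 4290), 57 in C57BL/6J KLA and 53 in BALB/cJ Veh, and BALB/cJ KLA had no Jun peak. The element with the strongest PPARγ peak was thus one of the 3 where Jun was found in the knockout. M2, 13.715 kb downstream, had a PPARγ count of 205 (rank 709 of 31089), the same as M5, and Jun counts of 55 in C57BL/6J Veh, 49 in KLA and 46 in BALB/cJ Veh, with none in BALB/cJ KLA or the knockout.

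Upstream, M23 at -19.761 kb had a Jun peak in the knockout with a count of 15 (rank 3049 of 4290), against 29 in C57BL/6J Veh (rank 6058 of 15548). It stood out for CEBPα, with 323 after Veh (rank 31 of 12892) and 342 after KLA (rank 18 of 14802). The missing Jun peaks at M19 (29), M21 (25), M22 (19) and M10 (18) had ranks from 6058 to 11889 in the wild-type list. M23 lay just inside the limit of 20 kb, with the outermost peak midpoint 217.5 bp inside it and the next peak, JunD KLA of BALB/cJ with a count of 92, 769.5 bp beyond. The downstream limit of Mir21a and both limits of the Lyz genes fell in gaps, with the nearest peaks 4522 to 18638 bp inside and 7711.5 to 32840.5 bp outside.

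The knockout was next compared with wild type for ATF3 and JunD, which took no part in the choice of the genes. All 14 wild-type ATF3 Veh peaks had an overlapping peak in the knockout, so 0 of 14 were missing, beside 21.8% of the whole ATF3 list. With the strongest 50% of each list this was 0 of 10, beside 11.4%. The knockout ATF3 list was the longer, with 28318 peaks against 23160 in wild type. The knockout ATF3 list had 16 member peaks, and the 2 without a wild-type counterpart, beside 36.1% of that list, were L3 (30) and L9 (18). Of 17 wild-type JunD Veh peaks, 9 were missing, beside 46.5% of the list. By locus this was 5 of 7 at the Lyz genes (L3, L5, L6, L12 and L13) and 4 of 10 at Mir21a (M9, M16, M22 and M23), and the strongest of them was L12 with a count of 77. The knockout JunD list held 11 member peaks, of which 3 (L1, M12 and M18) had no wild-type counterpart, beside 45.7% of its list. At the 11 elements where Jun was missing, the knockout had an ATF3 peak at 9 and a JunD peak at 5, beside 72.3% and 43.1% of all wild-type Jun peaks that were missing. At these genes every wild-type ATF3 peak thus had a knockout counterpart, and close to as many JunD peaks did as did not.

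KLA was compared with Veh in C57BL/6J. Of the Veh peaks, 0 of 14 ATF3 peaks had no counterpart after KLA (18.9% of the list), 4 of 14 Jun peaks (42.2%) and 2 of 17 JunD peaks (22.2%). The 4 Jun peaks were L3, L4, L5 and M21, and L3 was also one of the 2 JunD peaks, with M16. Of KLA peaks, 7 of 21 ATF3 peaks had no Veh counterpart (48.8% of the list), 5 of 15 Jun peaks (48.6%) and 7 of 22 JunD peaks (51.6%). Those of Jun were at L6, L7, M18 and M20, and 1 of the 2 Jun KLA peaks of M10. The other KLA peak of M10 overlapped the Jun Veh peak there, so M10 as an element had Jun in both. For Fos and JunB, which are induced early after stimulation, nearly all member peaks lay in KLA lists, 14 of 16 Fos peaks (95.5% of the list) and 11 of 12 JunB peaks (98.2%) being without a Veh counterpart. Of their Veh peaks, 0 of 2 for Fos (39.4% of the list) and 0 of 1 for JunB (47.1%) had no KLA counterpart. FosL2 had 8 Veh and 12 KLA peaks, of which 3 Veh peaks (50.8%) and 7 KLA peaks (75.3%) had no counterpart in the other list. The Fos KLA peaks were 13 at Mir21a and 3 at the Lyz genes, and JunB KLA peaks 11 and 1.

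Elements with peaks in KLA lists alone were M4, M11 and M20 at Mir21a and L11 at the Lyz genes. M4, 7.967 kb downstream, and M20, at -12.259 kb, had peaks in 10 and 12 lists, all of them KLA. At M20 the JunD counts were 509 in C57BL/6J (rank 4904 of 31640) and 97 in BALB/cJ, the Fos counts 106 and 144, and the Jun counts 39 and 39. At M4 the Fos counts were 106 in C57BL/6J (rank 3011 of 24365) and 162 in BALB/cJ (rank 5218 of 40459). In all, 5 of the 32 elements with AP-1 (L11, M4, M6, M11 and M20) had AP-1 peaks in KLA lists alone, beside 28.8% of such elements in the series. PU.1 and CEBPα peaks mostly had counterparts, with 2 of 15 PU.1 Veh peaks (26.4% of the list; L12 and M2) and 3 of 11 CEBPα Veh peaks (30.4%; L3, M2 and M3) missing after KLA. Of their KLA peaks, 7 of 20 for PU.1 (24.7%) and 2 of 10 for CEBPα (39.4%) had no Veh counterpart.

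In BALB/cJ, 3 of 13 ATF3 Veh peaks had no KLA counterpart (18.9% of the list), 4 of 9 Jun peaks (50% of the list) and 4 of 20 JunD peaks (37.8%). Of its KLA peaks, 8 of 18 ATF3 peaks (57%), 6 of 11 Jun peaks (51.6%) and 4 of 20 JunD peaks (47.3%) had no Veh counterpart. The 4 BALB/cJ Jun peaks missing after KLA were M2, M7, M21 and M23, of which M21 was also missing after KLA in C57BL/6J. At L5 the Jun peak was seen in C57BL/6J with Veh alone (20) and in BALB/cJ with KLA alone (27).

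Between strains, 3 of 14 C57BL/6J ATF3 Veh peaks had no BALB/cJ counterpart (37% of the list), 5 of 14 Jun peaks (51.4%) and 4 of 17 JunD peaks (24.3%). The Jun peaks were L3, L4, L5, M10 and M19, of which L3 alone had a count above 29. In the reverse direction, 0 of 9 BALB/cJ Jun Veh peaks (31.1% of the list), 2 of 13 ATF3 peaks (25.2%) and 7 of 20 JunD peaks (48.1%) had no C57BL/6J counterpart. After KLA, 3 of 21 C57BL/6J ATF3 peaks (23.5%), 6 of 15 Jun peaks (53.5%), 5 of 22 JunD peaks (26%), 0 of 16 Fos peaks (10.6%) and 3 of 12 JunB peaks (20.8%) were missing in BALB/cJ. All 6 of the Jun peaks were at Mir21a. In the reverse direction, BALB/cJ KLA peaks without a C57BL/6J counterpart were 0 of 18 for ATF3 (23.7%), 2 of 11 for Jun (28.3%), 4 of 20 for JunD (30.8%), 3 of 19 for Fos (46.1%) and 7 of 16 for JunB (51.1%). M5, M17, M22, L8 and L12 had a Jun peak in all 4 wild-type Jun lists, at M22 with counts of 19 and 19 in C57BL/6J and 29 and 34 in BALB/cJ. BALB/cJ reads had been aligned to a genome with the alleles of that strain.

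Sequence words were searched on both strands in the central 200 bp of each element, and shares are given beside those of 92909 elements of the series. The AP-1 word TGACTCA was in 7 of 36 elements, or 19.4%, against 18% of all. These were M2, M4, M5, M6, M19, M21 and M22, all at Mir21a, and 5 of them carried wild-type Jun Veh peaks. The CRE words TGACGTCA, TGAGCTCA and TGACCTCA were in 1 element (4.79% of all), the nuclear receptor core site AGGTCA in 4 (14.6%), the PU.1 word ACTTCCT in 5 (22.7%) and the CEBP word TTGCNNAA in 6 (14.2%). The remaining words were TGTGGTT of Runx in 3 elements (6.3% of all), the κB word of NF-κB (GGGA and TTCC around any 2 bases) in 1 (1.69%), the ISRE word of IRF factors (GAAA repeated around any 2 bases) in 3 (3.73%) and the full PPAR repeat (AGGTCA repeated around any 1 base) with up to 2 mismatches in 1 (3.55%). The core site lies within some of the CRE words and within the full repeat, so these matches overlap. With up to 1 mismatch allowed, which was chosen after the exact word was seen to be absent from M17, the AP-1 word was in 23 of 36 elements, or 63.9%, against 59.7% of all. M17 and M7 held such words and L12 did not. A word that is absent says only that these letters are not in this window, which is centred on the merged element and can miss part of a peak.

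L3 and L8 both held the short sites shown above, the CEBP word TTGCACAA and the core site TGACCT, the reverse complement of AGGTCA. Each also held a PU.1 word, but not the same site. It was AGGAAGT in L3 and ACTTCCT in L8, on opposite strands and opposite sides of the CEBP word. M23, where CEBPα was strongest at Mir21a, held 2 CEBP words, 1 of them the same TTGCACAA. L12, where CEBPα ranked 9 of 14802 after KLA, held no exact match to any of the words. The CEBP word was searched without mismatches, and the L12 sequence shown above holds TTACACAA, which differs from TTGCACAA at 1 base. So the lack of an exact word at L12 does not mean that it lacks a CEBP site.

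Other genes of the same kinds were counted by whether a wild-type Jun Veh peak lay in the gene body or within 20 kb, and whether any knockout Jun peak did. Over all GENCODE genes with a wild-type peak, 62.2% had no knockout Jun peak in their window. Of 9 lysozyme family genes, 3 had a wild-type Jun peak (Lyz2, Lyz1 and Lyzl4), and 1 of these, Lyzl4, with a highest count of 62, had no knockout peak. Lyz2 and Lyz1 share the same 5 Jun peaks and so count as 1 locus. Of 22 antibacterial and phagosome genes, 18 had a wild-type peak and 6 of these had no knockout peak. An example without one was Nos2, the inducible nitric oxide synthase, with a highest wild-type count of 51. Examples with one were Ctss, the lysosomal protease cathepsin S, with 89 in wild type and 45 in the knockout, and Cd68, a lysosomal membrane protein of macrophages, with 79 and 33. Of 23 microRNA genes studied in macrophages, 13 had a wild-type peak and 6 of these had no knockout peak, beside 67.3% of all microRNA genes with a wild-type peak. Clustered microRNAs share a window, as Mir23a, Mir27a and Mir24-2 do, with a highest count of 82 in wild type and 26 in the knockout. Among the 6 without a knockout peak, Mir99b, Mirlet7e and Mir125a had the same highest count of 37, and Mir221 and Mir222 the same of 28. The 6 genes are therefore fewer loci. Mir21a had the highest wild-type count of the microRNA list, 107, and 2 knockout peaks with a highest count of 20. So Mir21a and the Lyz genes count as genes with a knockout Jun peak, although their strongest Jun peaks were missing.

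The genes whose pattern was most like that of Lyz2 or Mir21a were found by the rank percentile of the strongest peak in the window in each of 29 lists, and Pearson's r across lists, with no test. The lists share factors and cells, so r is a description. For Lyz2, over 14876 candidate genes, these were Reep3 (r = 0.98), Tbc1d1 (0.976) and C030005K06Rik (0.975), each with peaks in 26 of the 29 lists. For Mir21a, over 14874, they were Gm14321 (0.989), Ahnak (0.97) and Notch2 (0.942), each with peaks in 28 of the 29 lists.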

How the data were processed

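ChIP-seq peak lists of 30 conditions in TGEMs were used as deposited, and 4 input samples had no list analysed here. Per the study's methods and processing notes, the authors aligned reads with Bowtie2 to mm10 or, for BALB/cJ, to a copy with that strain's alleles whose positions were moved to mm10 and whose deletions were left out, called peaks with HOMER, and kept peaks that passed an irreproducible discovery rate of 0.05 between replicates, which left 1 list per condition. The deposited count column holds whole read counts per peak, and the deposited IDR score column was read only to check the lists (scores of 540 to 1000). Versions of Bowtie2 and HOMER are not given in the sources used here. The 3 genes and the gene lists were chosen with earlier results of these data known.

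Peaks were joined across lists at an overlap of 1 bp, and a peak was called missing when no peak of the other list overlapped it. Ranks were by count, ties sharing the lower number. A peak under the authors' limit in a list is missing here, so depth moves these counts. Genes were named from GENCODE, and other named genes were the 3 with the highest r for Lyz2 and Mir21a. Motifs and unique 31-base words were read from the RefSeq GRCm38.p6 chromosomes, which have mm10 coordinates. Overlap and joining were tested on simulated data. Alternatives were other overlap rules, windows of 5 kb and 50 kb, lists cut by count, ranks per bp and a 100 bp motif window. Python 3.11.15, pandas 2.3.3, numpy 2.4.6, scipy 1.17.1 and Biopython 1.88 were used.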

Additional observations from a re-analysis of the deposited data

Results flagged for a closer look

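A Jun peak at L5, in a Lyz2 intron, was listed with Veh alone in C57BL/6J and with KLA alone in BALB/cJ. Both peaks were weak. The C57BL/6J Veh peak had a count of 20 (rank 10548 of 15548), where the lowest count of its list was 11. The BALB/cJ KLA peak had a count of 27 (rank 7988 of 11317), where the lowest was 17. A peak under the authors' limit is not listed, so no change of direction is read from this. Each condition is 1 list, the difference was not tested, and 75.5% of the 31-base words of L5 were unique.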

How the results depend on the processing

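Of 158 alternative values, 139 lay within the 95% Wilson interval of the reported share, or within the range set for a count or rank, and 19 did not. The intervals are wide and treat peaks of 1 list as independent, so a value inside one says little of stability. The share of member peaks missing in the knockout was 0% for ATF3, 71.4% to 88.9% for Jun and 36.4% to 64.7% for JunD over the alternatives, and that of the whole Jun list was 47.3% with lists cut to the shorter. The Jun shares of the members hold peaks on which the genes were chosen. Ordered by count per bp, L3 moved from place 1 to 97 and M17 from 2 to 121 among the missing PPARγ-bound Jun peaks. With the strongest 50% of each list, the share of C57BL/6J Veh peaks missing after KLA came to 11.1% for Jun (1 of 9, beside 38.5% of the list) and 0% for JunD (0 of 11, beside 22.7%), and the share of JunD Veh peaks missing in BALB/cJ to 9.09% (beside 12.1%). Within 5 kb of the genes, 66.7% of Jun Veh peaks (4 of 6) were missing in BALB/cJ, beside 51.4% of the list. The number of elements was 19 within 5 kb and 56 within 50 kb. In the central 100 bp 8.33% of elements held the exact AP-1 word, below the 13.6% of all elements, and with up to 1 mismatch, chosen after the data were seen, 63.9% did. By construction, these alternatives change which peaks, elements or words enter.

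No paired analysis was possible because each condition had 1 list, and no replicate was left out for the same reason. An absent peak is one not listed at the authors' limit.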
